A study of Mus musculus with 3 samples.

Results

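Klf1, Gata1, Tal1, Nfe2, Hemgn and Epor are genes of red cell formation, and their transcripts were compared between mouse liver RNA and mouse spleen RNA. They were taken by gene symbol in the array's annotation, which gave 1 probe for each of the 6 genes, and so 6 of the 16281 probes in the table. Each of the 6 was measured on all 3 arrays. The study hybridised a commercial liver total RNA in the red dye (Cyanine-5) together with a commercial spleen total RNA in the green dye (Cyanine-3) on each of 3 two-colour oligonucleotide arrays. No genotype, treatment, strain, sex, age or number of mice is given in the sources used here for either RNA, and both were amplified in 1 round. All arrays had the same dye orientation, so the effect of the dye on a probe and the difference between tissues cannot be told apart. The arrays were read as repeats of 1 pair of RNAs, so SDs and p-values reflect variation among arrays, perhaps only technical, and say nothing of variation among animals.

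Red cell formation runs from a committed progenitor through dividing erythroblasts to a cell that loses its nucleus. Gata1, Tal1 and Klf1 are DNA-binding proteins that switch on globin, heme and membrane genes in this lineage. Gata1 and Tal1 sit together on DNA through the bridging proteins Lmo2 and Ldb1. Nfe2 pairs with a small Maf protein on globin and platelet genes, and Hemgn (hemogen) is a nuclear protein of blood-forming cells. Epor is the surface receptor through which erythropoietin, a hormone, keeps erythroid progenitors alive. In mice the spleen goes on making red cells after birth, whereas the liver does so mainly before birth.

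Values are log2 ratios of liver over spleen, so a negative value means a lower level in liver. The array titles read "Spleen vs Liver", with the tissues in the other order, and do not define the ratio. The direction of liver over spleen is likely but is not stated in the labels. It rests on the medians of a set of liver genes, at 3.86, 4.11 and 3.72 on arrays 1, 2 and 3, against those of a set of spleen genes, at -1.53, -1.62 and -0.96. The liver medians rest on 3, 5 and 3 genes, because albumin (Alb) and others were listed at exactly 0 on some arrays, which was taken as no measurement. Each gene was tested against a ratio of 0 with limma over all 9803 genes that had a probe measured on every array. It passed the test at a Benjamini-Hochberg adjusted p under 0.05.

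Of the 6 genes, 0 passed limma's test toward liver, 5 passed it toward spleen and 1 did not pass. At an unadjusted p under 0.05 the counts were also 0 and 5. Among all 9803 genes, 25.3% passed toward liver and 27.4% toward spleen. Over all 14122 measured probes, that test called 23.5% toward liver and 26.7% toward spleen. It called 5 of the 6 erythroid probes, all higher in spleen. With 1 probe per gene these are the same values as in the gene test, so that count adds no separate evidence. The median of the 6 genes was -1.59, against 0.02 over all genes. At 2-fold or more, 4 of the 6 were higher in spleen, where 8.40% of all genes were. At 4-fold or more, 3 of the 6 were, against 1.45% of all genes. In bulk RNA, fewer cells of a type and less RNA per cell cannot be told apart.

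Klf1, a zinc finger activator of the adult beta-globin gene, had the lowest mean of the 6. Its log2 ratios were -3.31, -2.90 and -2.89 on arrays 1, 2 and 3. Every array gave a liver level far below the spleen level, and arrays 2 and 3 were close together. The mean was -3.04 ± 0.24 (SD, n = 3), which is 8.20-fold higher in spleen, with a 95% interval of 6.72 to 10.0 (limma adjusted p = 2.29e-05). Klf1 stood 15th from the spleen end of the 9803 genes.

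Hemgn lay next to it. Its log2 ratios were -3.06, -3.03 and -2.73 on the 3 arrays, with array 3 the nearest to 0. The mean was -2.94 ± 0.18 (SD, n = 3), or 7.66-fold higher in spleen with a 95% interval of 6.43 to 9.13 (limma adjusted p = 1.84e-05). Hemgn stood 21st from the spleen end.

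Tal1, the basic helix-loop-helix factor needed for blood formation, gave -2.00, -2.07 and -2.03. These were the most even values among the 6 genes. The mean log2 ratio was -2.03 ± 0.04 (SD, n = 3), or 4.09-fold higher in spleen with a 95% interval of 3.57 to 4.70 (limma adjusted p = 2.25e-05).

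Epor read -1.50 on array 1, -1.09 on array 2 and -0.83 on array 3. All 3 values were below 0 but they were spread over 0.67 on the log2 scale. The mean was -1.14 ± 0.34 (SD, n = 3), or 2.20-fold higher in spleen with a 95% interval of 1.72 to 2.82 (limma adjusted p = 0.00143).

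Gata1, the zinc finger factor that defines the erythroid and megakaryocyte lineages, gave -0.36 on array 1, -1.02 on array 2 and -0.34 on array 3. Array 2 stood apart from the others, which nearly coincided. The mean log2 ratio was -0.57 ± 0.39 (SD, n = 3), or 1.49-fold higher in spleen with a 95% interval of 1.13 to 1.96 (limma adjusted p = 0.0268). Without array 2 the mean was -0.35 and the gene did not pass (adjusted p = 0.0529). Over all 9 settings tried, the adjusted p for Gata1 ran from 0.0241 to 0.0694.

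Nfe2, the large subunit of the factor NF-E2, read -0.19, 0.06 and -0.02, on both sides of 0. Its mean was -0.05 ± 0.12 (SD, n = 3) with a 95% interval of -0.28 to 0.17 on the log2 scale, and it did not pass limma's test (adjusted p = 0.633). That interval holds no 2-fold difference in either direction for this probe.

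**Figure D1:**
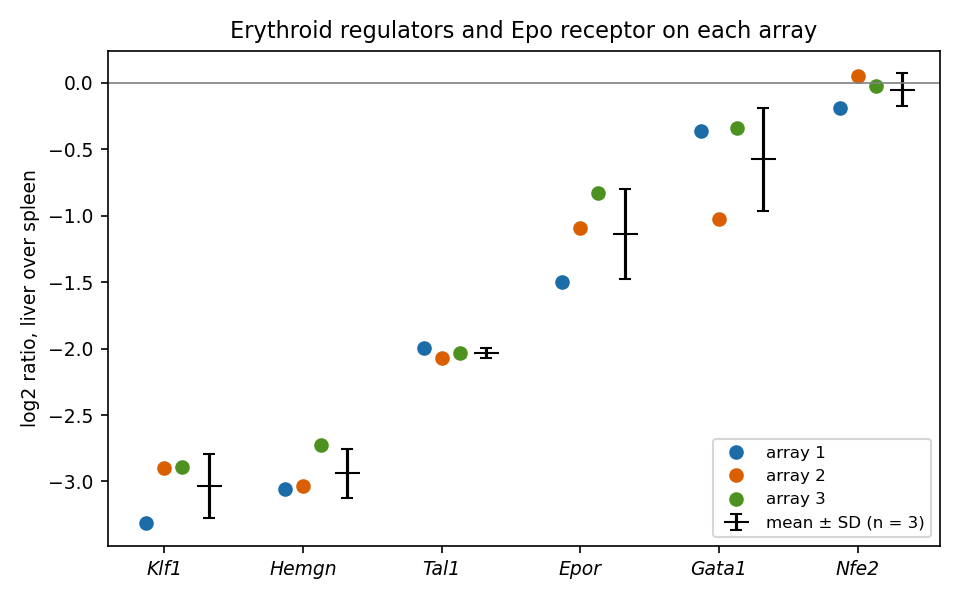
The vertical axis is the log2 ratio of liver over spleen for each of the 6 genes, with 1 point per array and the mean ± SD (n = 3) beside them. Klf1 and Hemgn lie near -3, Tal1 near -2, and Nfe2 around 0, while array 2 lies apart for Gata1.

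In order, the mean log2 ratios ran Klf1, Hemgn, Tal1, Epor, Gata1 and Nfe2. The array values of Klf1 and Hemgn overlapped, as did those of Epor and Gata1. Klf1 was the lower of its pair on arrays 1 and 3 and Hemgn on array 2. The other neighbours did not overlap. Hemgn was below Tal1 on every array, by 0.90 ± 0.19 (SD, n = 3), and Tal1 was below Epor by 0.90 ± 0.36. Gata1 was below Nfe2 by 0.52 ± 0.49, of which array 2 gave 1.08. An exact sign permutation over 3 arrays cannot give a two-sided p under 0.25, and no other test of these differences was run. Each gene rests on 1 probe, and the table holds no intensity for either channel.

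Probes of 1 gene did not always give the same ratio. There were 88 genes with at least 2 measured probes of which 1 or more had a mean of -2 or lower. In 35 of them (39.8%), another probe of the same gene lay within 0.5 of 0. Over all 9803 genes the median distance of a mean from 0 was 0.31, so means within 0.5 of 0 were common. Nfe2 and Gata1 have 1 probe each, so the count does not cover them. The anion exchanger Slc4a1 of the red cell membrane is an example, with probes at -2.94 ± 0.27 and -0.37 ± 0.30 (SD, n = 3). So is the membrane anchor Ank1, at -2.28 ± 0.46 and -0.03 ± 0.10. Whether the Nfe2 and Gata1 probes read their transcripts in full was not tested.

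**Figure D2:**
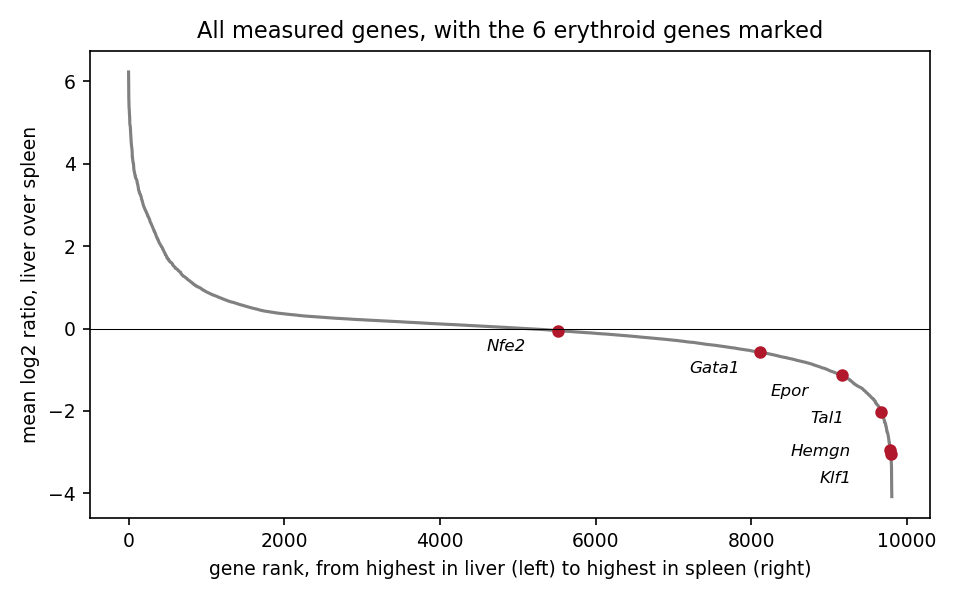
The grey line gives the mean log2 ratio of liver over spleen for all 9803 genes, ordered along the horizontal axis from the highest in liver to the highest in spleen. Klf1 and Hemgn lie in the steep spleen end at ranks 15 and 21 from the right, while Nfe2 lies where the line crosses 0.

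Promoters of genes that were lower in liver are shown because Gata1 and Klf1 are both DNA-binding regulators and members of this set. RefSeq windows of 300 bases, from 250 before a gene's start to its first 50, were found for 5 of the 6 genes, with 2 windows for Tal1. Those of Klf1, Hemgn, Epor and Gata1 are printed, and those of Tal1 are described without their letters. Capitals mark GATAA, the core that GATA factors bind, or CCNCNCCC, a CACCC-type box of Kruppel-like factors, on either strand.
Klf1 promoter, GRCm38.p6, chr8:84901732-84902031, plus strand: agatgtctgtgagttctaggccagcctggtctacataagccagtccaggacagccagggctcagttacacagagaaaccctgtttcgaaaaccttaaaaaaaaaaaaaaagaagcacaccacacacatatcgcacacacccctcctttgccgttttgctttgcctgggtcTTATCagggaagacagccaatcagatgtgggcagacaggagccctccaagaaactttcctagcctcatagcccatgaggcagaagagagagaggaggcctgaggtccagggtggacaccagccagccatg
Hemgn promoter, GRCm38.p6, chr4:46404134-46404433, minus strand: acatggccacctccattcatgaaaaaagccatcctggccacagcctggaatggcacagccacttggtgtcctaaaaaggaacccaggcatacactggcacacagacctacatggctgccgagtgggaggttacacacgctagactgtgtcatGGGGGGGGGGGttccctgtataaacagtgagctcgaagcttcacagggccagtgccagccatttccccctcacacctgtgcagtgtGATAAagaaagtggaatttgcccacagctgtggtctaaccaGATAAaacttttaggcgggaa
Epor promoter, GRCm38.p6, chr9:21963527-21963826, minus strand: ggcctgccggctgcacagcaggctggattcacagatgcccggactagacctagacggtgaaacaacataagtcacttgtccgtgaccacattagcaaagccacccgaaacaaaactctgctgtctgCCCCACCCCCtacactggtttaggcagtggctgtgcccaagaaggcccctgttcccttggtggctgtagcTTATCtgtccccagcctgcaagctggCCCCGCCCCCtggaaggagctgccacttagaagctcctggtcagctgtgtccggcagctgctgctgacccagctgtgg
Gata1 promoter, GRCm38.p6, chrX:7967861-7968160, minus strand: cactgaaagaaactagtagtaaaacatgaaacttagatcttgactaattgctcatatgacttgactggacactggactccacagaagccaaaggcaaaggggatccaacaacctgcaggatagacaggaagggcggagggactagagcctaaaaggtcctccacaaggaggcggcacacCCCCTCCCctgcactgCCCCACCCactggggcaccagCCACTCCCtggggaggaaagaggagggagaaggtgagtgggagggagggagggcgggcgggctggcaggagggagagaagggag

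The Klf1 window holds 1 GATAA, on the opposite strand, whose first base lies 80 bases before the start, and no CCNCNCCC. Hemgn holds a GATAA 12 bases before its start and another 29 bases after it. Its CACCC-type matches are overlapping reads of 1 run of G. Epor holds a GATAA on the opposite strand 54 bases before the start, between 2 pairs of overlapping CCNCNCCC matches. The Gata1 window holds 3 CCNCNCCC matches and no GATAA. Of the Tal1 windows, the upstream one holds a GATAA 205 bases before its start. GATAA was thus found in 4 of the 6 windows, and 25.4% of all 32851 RefSeq windows hold it. The Tal1 window without it holds CCNCNCCC. CCNCNCCC was also found in 4 of the 6, against 49.5% of all windows, and CAGNTG, an E-box of the kind Tal1 binds with its partners, in 4 against 51.4%. TGAGTCA, the core bound by NF-E2, was in none of the 6, against 5.20% of all windows. These matches describe letters and not bound sites.

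The relatives of the 4 factors in their families were measured on the same arrays, and no difference between a factor and its relatives was tested. The family counts include the factor itself, and over all 9803 genes 25.3% passed toward liver and 27.4% toward spleen. Among the 12 measured Kruppel-like factors, 4 passed toward liver, 4 passed toward spleen and 4 did not pass. With Klf1 left out, 3 of 11 (27.3%) passed toward spleen, close to the share over all genes. Klf15, a regulator of glucose and amino acid metabolism in liver, was 3.22, 3.19 and 2.78 on the 3 arrays. Its mean of 3.06 ± 0.24 (SD, n = 3) lay about as far above 0 as that of Klf1 lay below. Klf5 averaged 2.06 ± 0.17, Klf9 1.37 ± 0.28 and Klf7 1.02 ± 0.03. Besides Klf1, the factors higher in spleen were Klf2, a regulator of lymphocyte traffic, at -1.99 ± 0.15, Klf4 at -0.79 ± 0.45 and Klf6 at -0.57 ± 0.24. Klf3, a repressor that shares DNA sites with Klf1, read -0.01 ± 0.19 and did not pass.

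All 6 GATA factors were measured, and their means stayed within 1 of 0 on the log2 scale. One, Gata6, was higher in liver and 4 were higher in spleen. Gata6 averaged 0.27 ± 0.08 (SD, n = 3), from probes at 0.42 and 0.11. Gata4, which with Gata6 acts in endoderm, was at 0.15 ± 0.17 and did not pass. After Gata1 came Gata5 at -0.41 ± 0.20, Gata3, the T-cell factor, at -0.36 ± 0.23, and Gata2, the factor of blood progenitors and mast cells, at -0.30 ± 0.11. These calls were close to the threshold, with limma adjusted p-values between 0.0203 and 0.0383. Without array 1, 2 or 3 in turn, 0 GATA factors passed toward liver and between 1 and 2 toward spleen. With values of exactly 0 kept in the table as measurements, 2 passed toward spleen, although no GATA probe had such a value.

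Of the 4 measured factors of the Tal1 group, 0 passed toward liver (1 at an unadjusted p under 0.05) and 2 toward spleen by limma. Besides Tal1 it was Lyl1, its closest relative in blood cells, at -1.29 ± 0.14 (SD, n = 3, adjusted p = 0.000154). Nhlh1 at -0.19 ± 0.17 and Tal2 at 0.26 ± 0.16 did not pass. In the group of Nfe2, 7 factors were measured, of which 2 were higher in liver RNA and 3 in spleen RNA, and all lay within 1 of 0. The small Maf partners of Nfe2 went opposite ways. Mafg averaged 0.76 ± 0.10, higher in liver, and Mafk -0.56 ± 0.03, higher in spleen. The stress-response relatives Nfe2l2 and Nfe2l1 were at -0.40 ± 0.02 and 0.29 ± 0.11, the Nfe2l1 mean coming from probes at 0.02 and 0.56, and Nfe2l3 was at -0.28 ± 0.03. Bach1, a heme-sensing repressor at Maf sites, was at 0.05 ± 0.08 and did not pass. Without any 1 of the arrays, 1 of this group passed toward liver.

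**Figure D3:**
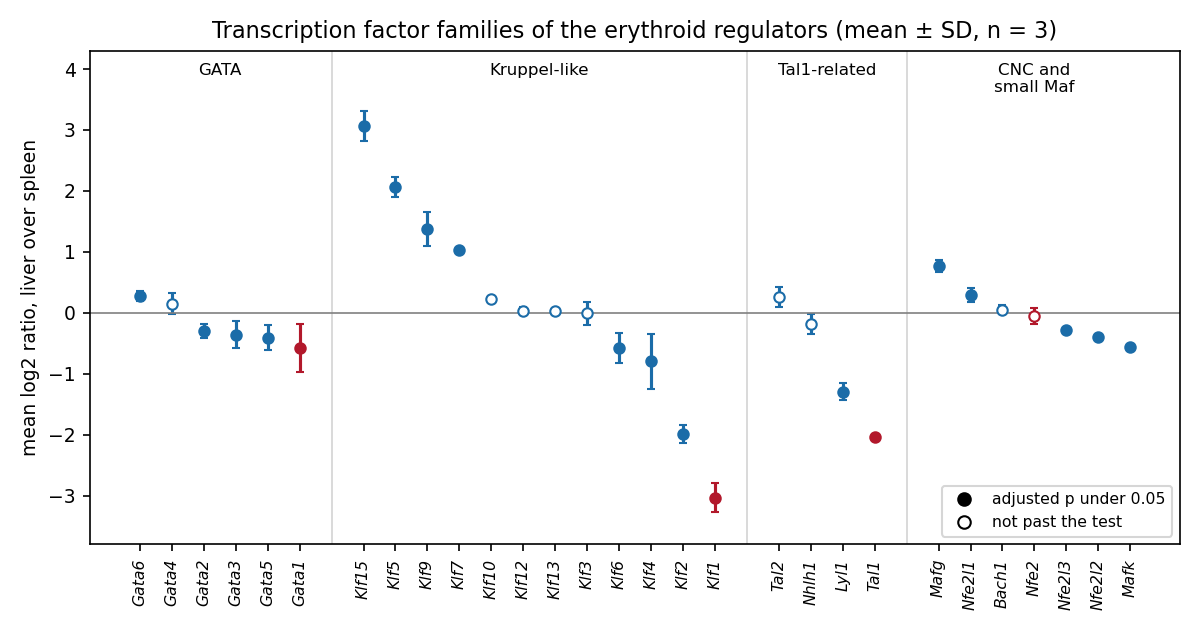
Mean log2 ratio of liver over spleen, ± SD over 3 arrays, for each measured gene of the 4 transcription factor families, with Klf1, Gata1, Tal1 and Nfe2 in red and open symbols for genes that did not pass the test. Kruppel-like factors span 3.06 (Klf15) to -3.04 (Klf1), while the GATA and Nfe2 families stay within 1 of 0.

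Transcripts of several proteins that bind Gata1 and Tal1 were lower in liver as well. Of 16 measured partners and cofactors, 2 were higher in liver RNA and 10 in spleen RNA, with a median of -0.53. Lmo2, the bridge between Tal1 and Gata1, averaged -1.46 ± 0.20 (SD, n = 3, limma adjusted p = 0.000168) and its binding partner Ldb1 -1.33 ± 0.13 (adjusted p = 0.000134). On the 3 arrays Lmo2 read -1.67, -1.27 and -1.43 and Ldb1 -1.35, -1.19 and -1.46, with all values under -1. Gfi1b, a repressor of the erythroid and megakaryocyte lines, averaged -1.33 ± 0.09, and Chd4, a chromatin remodeller, -0.98 ± 0.09. Zfpm1, the Gata1 cofactor also called FOG1, averaged -0.49 ± 0.05, and Cbfa2t3, a corepressor in Tal1 complexes, -0.69 ± 0.03. The pair higher in liver were Mafg and Tcf12, an E protein that pairs with Tal1, at 0.28 ± 0.08. Without any 1 of the arrays, 1 partner passed toward liver. Tcf3, the other E protein, was at -0.16 ± 0.05, and Spi1, the myeloid factor that opposes Gata1, was at -0.24 ± 0.59. Neither passed the test, and Spi1 read -0.92 on array 1 against 0.08 and 0.11 on arrays 2 and 3.

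Among 15 other measured regulators of the erythroid line, 0 passed toward liver and 8 toward spleen by limma, 0 and 9 at an unadjusted p under 0.05. Trim10, a ubiquitin ligase of late erythroid cells, averaged -1.55 ± 0.27 (SD, n = 3). Myb, the factor of dividing progenitors, was at -1.40 ± 0.58. The glucocorticoid receptor Nr3c1, which prolongs the division of early erythroid cells, was at -1.35 ± 0.18. Bcl11a, a repressor of fetal globin that B cells also express, was at -1.34 ± 0.97, with array values of -1.02, -2.43 and -0.58. Foxo3, Klf13 and Zbtb7a lay between 0.02 and 0.09 and did not pass.

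The genes listed for Epo receptor signalling gave a mixed picture. That list also takes in the receptor Kit and its ligand Kitl, which are not downstream of Epor and passed toward spleen. Of 26 measured genes of Epo receptor signalling, 3 passed toward liver and 7 toward spleen, and 16 did not pass, with a median of -0.09. At an unadjusted p under 0.05 the counts were 5 toward liver and 11 toward spleen. The share past the adjusted test toward spleen was 26.9%, and over all genes it was 27.4%. Jak2, the kinase bound to the receptor's tail, had the lowest mean, at -1.96 ± 0.05 (SD, n = 3, limma adjusted p = 2.48e-05). Its 2 probes gave nearly the same value, at -1.97 and -1.96. Stat5a and Stat5b, the factors that Jak2 activates, were at -0.18 ± 0.33 and -0.25 ± 0.12 and did not pass. The feedback inhibitors that Stat5 induces differed in direction. Cish averaged 0.84 ± 0.02 and Socs2 0.52 ± 0.26, both higher in liver, while Socs3 was at -0.47 ± 0.10 and higher in spleen. Cish and Socs2 are also induced by growth hormone. Probes differed within these genes, at 1.33 and 0.35 for Cish and at 1.08 and -0.04 for Socs2. The adaptor Gab1, at 0.30 ± 0.11, was the remaining gene higher in liver.

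Kit, the receptor for stem cell factor that acts beside Epor in early erythroid cells, was at -0.98 ± 0.14, and its ligand Kitl at -1.33 ± 0.72, with array values between -2.06 and -0.62. The hormone gene Epo itself had a value on arrays 1 and 3 alone, at -0.31 and 0.03, and was not tested.

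**Figure D4:**
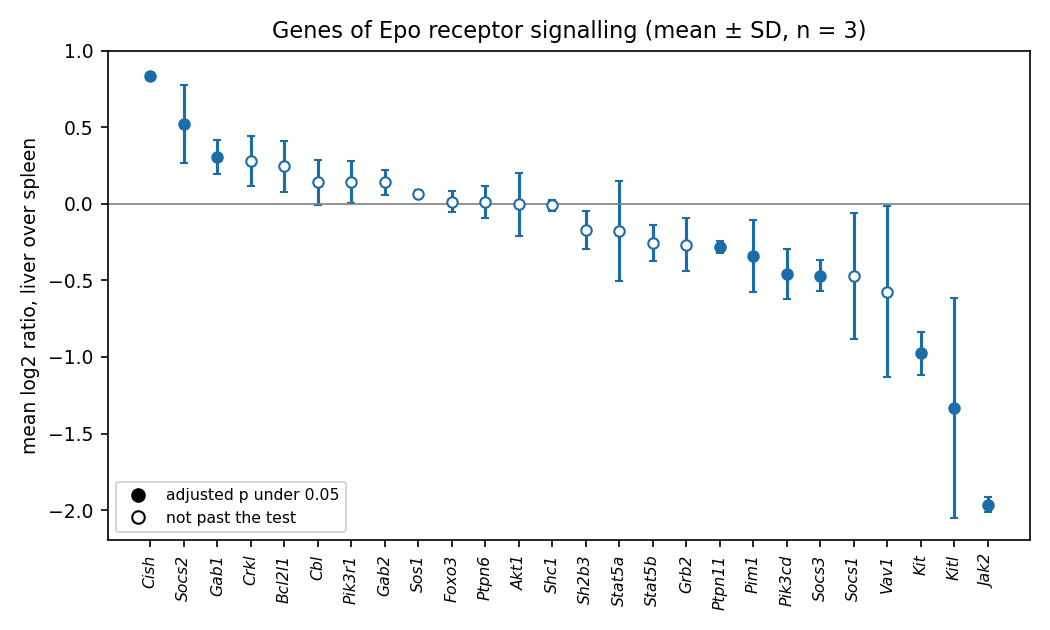
Mean log2 ratio of liver over spleen, ± SD over 3 arrays, for the 26 measured genes of Epo receptor signalling, with open symbols for genes that did not pass the test. Jak2 lies lowest at -1.96 and Cish highest at 0.84, and most others lie within 0.5 of 0.

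Epor belongs to the class I cytokine receptors. Of 22 measured, 3 were higher in liver RNA and 10 in spleen RNA. With Epor left out, 9 of 21 (42.9%) were higher in spleen RNA, where 27.4% of all genes were. Those higher in liver were the leukaemia inhibitory factor receptor Lifr at 3.17 ± 0.12 (SD, n = 3), the growth hormone receptor Ghr at 2.19 ± 0.24 and Cntfr at 1.04 ± 0.03. The 2 Ghr probes gave 4.44 and -0.06, and another Lifr probe, without a value on array 2, read 0.32 and 0.04. Toward spleen, Epor came after the lymphocyte receptor Il7r at -2.82 ± 0.12 and Osmr at -1.59 ± 0.22, and before Crlf2 at -0.95 ± 0.07, whose probes read -1.52, -1.39 and 0.05.

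Genes of the mature red cell, several of them known targets of Gata1 and Klf1, were mostly lower in liver. Of 23 measured genes of the red cell membrane, iron uptake and red cell enzymes, 3 passed toward liver and 18 toward spleen, and 2 did not pass, with a median of -0.85. Carbonic anhydrase Car2 averaged -2.57 ± 0.19 (SD, n = 3) and the blood-group protein Rhd -2.54 ± 0.28, from 3 Rhd probes between -3.33 and -1.53. Bpgm, the enzyme that makes 2,3-bisphosphoglycerate in red cells, was at -2.21 ± 0.23, and the erythroid membrane protein Ermap at -1.86 ± 0.16. The transferrin receptor of hepatocytes and erythroid cells, Tfr2, went the other way at 2.17 ± 0.05, as did Rhag, the partner of Rhd, at 1.66 ± 0.26. The spectrin chain Sptb was at 0.27 ± 0.12, while another of its probes, without a value on array 1, read -1.67 and -0.72.

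Of 11 measured globin and heme synthesis genes, 1 was higher in liver RNA and 5 in spleen RNA. Alas2, the first enzyme of heme synthesis in erythroid cells and a target of Gata1, averaged -1.40 ± 0.37 (SD, n = 3). The embryonic globin Hbb-y averaged -1.83 ± 0.77, and binding of related globin RNAs to its probe was not tested. Abcb10, a mitochondrial transporter of erythroid cells, was at -0.65 ± 0.25 and the heme enzyme Uros at -0.62 ± 0.04, while Alad, another heme enzyme, was at 0.45 ± 0.09. No array gave a value for the Hbb-b2 probes or for 1 of the Hba-a1 probes, all listed at 0. The Hba-a1 probe with values, for adult alpha-globin, read 0.05, 0.21 and -0.30, a mean of -0.02 ± 0.26 (SD, n = 3) that did not pass (limma adjusted p = 0.915). The embryonic globins Hbb-bh1 at -0.17 ± 0.26 and Hba-x at 0.15 ± 0.27, the heme enzyme Cpox at -0.52 ± 0.50 and Fech, the last enzyme of heme synthesis, at 0.02 ± 0.07 did not pass either.

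**Figure D5:**
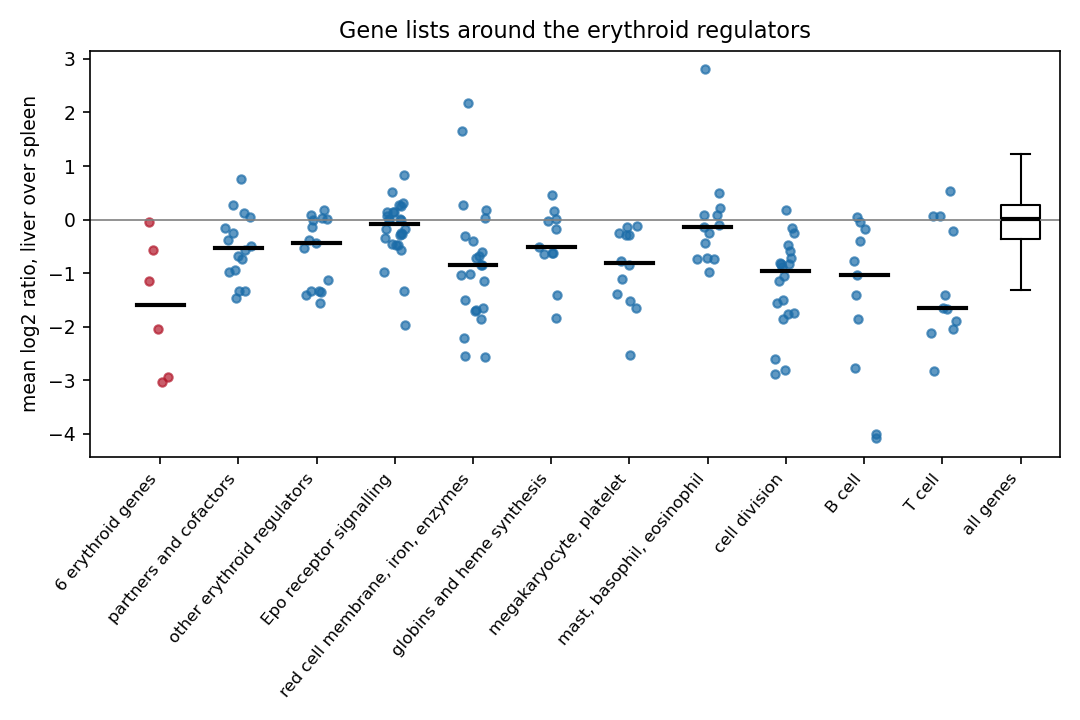
Each blue point is a gene's mean log2 ratio of liver over spleen in the list named below it, the 6 erythroid genes are in red, and bars are list medians. The box gives the quartiles of all 9803 genes, with whiskers to the last gene within 1.5 box heights, and every list median shown lies below the median of all genes.

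Other cells of spleen carry some of the same regulators, since megakaryocytes use Gata1, Tal1 and Nfe2, and mast cells and eosinophils use Gata1. Of 12 measured megakaryocyte and platelet markers, 0 were higher in liver RNA and 7 in spleen RNA by limma, 0 and 8 at an unadjusted p under 0.05. Their means ran from -2.53 to -0.11 with a median of -0.81. Plek averaged -2.53 ± 0.51 (SD, n = 3), Rab27b -1.65 ± 0.39, the platelet integrin Itga2b -1.52 ± 0.06 and platelet factor Pf4 -1.39 ± 0.20. The Pf4 probes differed, at -3.06 and 0.28. Of 13 markers of mast cells, basophils and eosinophils, 2 were higher in liver RNA and 5 in spleen RNA, with means from -0.98 to 2.81 and a median of -0.13. Besides Kit, those higher in spleen included Il5ra at -0.73 ± 0.25, Prg2 at -0.73 ± 0.26 and Hdc at -0.72 ± 0.32. Ccr3 at 2.81 ± 0.08 and Cma1 at 0.50 ± 0.27 were higher in liver, while another Ccr3 probe, without a value on array 2, read -0.14 and -0.69. Without array 1 or array 3, 1 of this list passed toward liver.

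Markers of dividing cells and lymphocytes were mostly lower in liver too. Of 20 cell division markers, 0 were higher in liver RNA and 17 in spleen RNA by limma, 0 and 18 at an unadjusted p under 0.05. Their means ran from -2.88 to 0.17 with a median of -0.97, led by Mcm4 at -2.88 ± 0.13 (SD, n = 3), Ccna2 at -2.80 ± 0.22, Mki67 at -2.60 ± 0.27 and Mcm6 at -1.85 ± 0.29. Of 11 B-cell markers, 0 passed toward liver by limma and 8 toward spleen, and 0 and 8 at an unadjusted p under 0.05, with means from -4.08 to 0.05. Of 11 T-cell markers, 1 was higher in liver RNA and 7 in spleen RNA, with means from -2.82 to 0.54. The part of these cell types in the ratios of Klf1, Hemgn, Tal1, Epor and Gata1 was not tested.

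The genes whose 3 array values lay nearest to each erythroid gene were found by Euclidean distance over the log2 ratios of all 9803 genes. Nearest to Klf1 were Anxa1 at a distance of 0.074 and St8sia4 at 0.365. Tspan32 at 0.073 and Ptpn18 at 0.201 were nearest to Hemgn, and Cd3d at 0.083 and Il33 at 0.092 to Tal1. Sit1 at 0.105 and Gins3 at 0.109 were nearest to Epor, Fam107b at 0.061 and Ruvbl1 at 0.116 to Gata1, and Asic1 at 0.036 and Camk2b at 0.041 to Nfe2. With 3 arrays of 1 pair of RNAs, such nearness describes a similar ratio and nothing else.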

How the data were processed

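Liver and spleen RNA were compared on 3 two-colour arrays, named 1 to 3 after their titles. The deposited table holds 1 log2 ratio per probe and array, made by the authors. The sources used here do not give its background correction or dye normalization. The log2 scale was read from the values, whose maximum over the 3 arrays together is 6.64, the log2 of 100. Each deposited column has a median of 0, and an exact 0 (1414, 1098 and 1137 probes) was taken as no measurement. Depth has no meaning for arrays, and their number limits the precision.

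Probes were named from the platform annotation, with symbols checked through Entrez numbers in RefSeq (13694 of 13738 probes with 1 symbol were matched and none changed). Probes measured on all arrays were averaged per gene, giving 9803 genes. An intercept-only limma fit (limma 3.58.1, R 4.3.3, 3.38 prior degrees of freedom) gave a two-sided p for each gene. The fit was tested on simulated data. Promoter sequences are RefSeq's, build GRCm38.p6.

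The 6 genes and all lists were chosen with earlier results of these data known. Of each list, up to 4 genes past the test in the majority direction and 2 in the other were named. So were all measured GATA, Tal1-related and Nfe2-related factors, and the 2 nearest genes of each member from outside the 6. Zfpm1, Cbfa2t3, Tcf3, Spi1, Klf3, Foxo3, Klf13, Zbtb7a, Stat5a, Stat5b, Hba-a1, Hbb-bh1, Hba-x, Cpox, Fech, Gab1, Cntfr, Sptb, Slc4a1 and Ank1 were named after their values were seen, and the count of genes with differing probes was added then. Lists share genes (Gfi1b, Kit, Mafg, Mafk, Il7r, Il5ra, Klf3, Klf13 and Foxo3 are each in more than 1). Alternatives left out each array, centred or scaled the arrays, kept exact 0 values, added probes measured on 2 arrays, took each gene's probe with the mean farthest from 0, or required 2-fold.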

Additional observations from a re-analysis of the deposited data

How the results depend on the processing

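Klf1, Hemgn, Tal1 and Epor stayed past the test under all 8 alternatives fitted. Their mean log2 ratios ran from -3.11 to -2.90, -3.04 to -2.88, -2.06 to -2.01 and -1.29 to -0.96. Each erythroid gene has 1 probe, with a value on every array. Keeping exact 0 values, adding probes measured on 2 arrays or taking the probe farthest from 0 therefore could not change its mean or SD. Only its p-value could move there. In the fits that left out an array, or centred or scaled the arrays, Klf1, Hemgn, Tal1 and Epor kept their direction. Gata1 ran from -0.69 to -0.35 and lost its call in 2 settings, with array 2 left out (adjusted p = 0.0529) and with exact 0 values kept (adjusted p = 0.0694). Nfe2 changed sign without array 1, to 0.017 (-0.11 to 0.017 over the 3 fits that leave out an array), and passed under none.

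Requiring 2-fold cut the counts by construction. All genes then gave 903 toward liver and 823 toward spleen. The counts were 0 and 0 for the GATA family and also for the Nfe2 family, 0 and 2 for Epo receptor signalling, 0 and 3 for partners and cofactors, 0 and 2 for globins and heme synthesis, and 1 and 0 for mast cell, basophil and eosinophil markers. Toward liver, T-cell markers gave 0. Toward spleen, Kruppel-like factors gave 2, class I cytokine receptors 3, cell division markers 10 and red cell genes 11. With exact 0 values kept, 2 GATA factors passed toward spleen. Every GATA probe had a value on all 3 arrays, so the means and SDs of these factors did not change in that setting. Which part of the fit or of the adjustment moved the calls was not tested.

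Leaving out 1 array, with fewer arrays in the fit, gave 0 to 0 GATA factors toward liver and 1 to 2 toward spleen, 1 to 1 toward liver for the Nfe2 family and for partners and cofactors, and 1 to 2 toward liver for the mast cell list. Of all 322 pairs of a count and an alternative, 288 stayed within 1.5 times. Pairs with 0 on both sides were counted among these, such as the erythroid genes toward liver under every alternative. Each log2 ratio sets liver against spleen RNA on the same array, so every test was already paired within arrays. No further pairing was possible because all 3 arrays form 1 group with no other group to pair them to.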
